A study of Mus musculus with 6 samples.

Results

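Efferocytosis is the engulfment of dying cells by phagocytes. The expression of 9 of its genes, out of 32285 genes counted, was examined by cell type in orthotopic mouse pancreatic tumours. The genes were the receptor tyrosine kinases Mertk, Axl and Tyro3, the bridging proteins Gas6, Pros1 and Mfge8, and the further receptors Stab1, Cd36 and Itgav. They were chosen by name from the pathway, with earlier results of these data known, and all 9 were found by their symbols in every gene list.

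Dying cells expose phosphatidylserine on their surface. Gas6 and protein S, the product of Pros1, attach this lipid to the kinases Mertk, Axl and Tyro3 on the phagocyte, while the product of Mfge8 attaches it to integrins that contain the alpha V chain encoded by Itgav. Stab1 and Cd36 are scavenger receptors that also take part in the uptake, and macrophages that clear cells this way are known for a dampened inflammatory response.

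Young adult C57BL/6 mice bore the tumours in the pancreas, grown from the mouse pancreatic cancer line KPC with either a vector (KPC-OE-Vector) or a construct for overexpression of mouse Mlkl (KPC-OE-MLKL), the pseudokinase that ruptures the membrane in necroptosis. The labels name 3 samples of each group, and count matrices were analysed here for 4 libraries, OE-Vector 1 and OE-MLKL 1, 2 and 3. The matrices of the other 2 OE-Vector samples were not analysed here. The label "pancreatic cancer cells" covers whole digested tumours.

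Transcripts were counted as UMIs, tags that mark each captured molecule once, at a depth of 150591289 to 169978362 UMIs per library, and levels are given as CPM, the UMIs of the gene per 1000000 UMIs of the cells summed. Of the 62348 cells kept, marker genes gated 9163 macrophages, 366 dendritic cells, 24327 neutrophils and 11864 cancer cells, and any pair of libraries shared 73 to 134 cell barcodes. Among cancer cells Mlkl stood at 16.3 CPM in OE-Vector 1 and at 8.42, 12.7 and 20.3 CPM in OE-MLKL 1, 2 and 3. The targeted gene was thus not higher in each library labelled OE-MLKL, and the label is quoted as given throughout. Whether transcripts of the construct fall within what is counted as Mlkl is not shown by the files. Depth paired the libraries: the median macrophage held 8177.5 UMIs in OE-Vector 1 and 6850 in OE-MLKL 3, but 4019 and 4650 in OE-MLKL 1 and 2.

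The gated classes were checked with markers that the gate did not use. The sum of Cd68, Mrc1, Apoe, Pf4, Lyz2 and Trem2 was 29634 to 35018 CPM in macrophages, against at most 3001 CPM in the other 3 classes. The 6 dendritic check markers reached 7545 to 8980 CPM in dendritic cells and 1840 to 3774 CPM in macrophages. Of the dendritic cells 21.6%, and of the cancer cells 27.7%, carried the smallest number of markers that the gate accepts, against 2.31% of macrophages and 4.77% of neutrophils.

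All 9 genes are protein-coding. On the GRCm38 genome with the GENCODE vM21 annotation, Mertk (ENSMUSG00000014361) lies at chr2:128698956-128802894 on the plus strand, Axl (ENSMUSG00000002602) at chr7:25757273-25788705 on the minus strand and Tyro3 (ENSMUSG00000027298) at chr2:119797733-119818104 on the plus strand. Gas6 (ENSMUSG00000031451) lies at chr8:13465374-13494490 on the minus strand, Pros1 (ENSMUSG00000022912) at chr16:62854307-62929346 on the plus strand and Mfge8 (ENSMUSG00000030605) at chr7:79133768-79149060 on the minus strand. Stab1 (ENSMUSG00000042286) lies at chr14:31139013-31168641 and Cd36 (ENSMUSG00000002944) at chr5:17781690-17888801, both on the minus strand, and Itgav (ENSMUSG00000027087) at chr2:83724397-83806916 on the plus strand. Genes on the opposite strand overlap Mertk (Gm14011), Gas6 (Tmem255b), Stab1 (Nt5dc2) and Itgav (Gm13684 and Dnmt3l-ps1), and Gm23172 overlaps Mertk on the same strand. Whether the counting used strand is not stated in the sources used here, so reads of such partners may be mixed.

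Mertk, Gas6 and Stab1 had the most alike levels across classes, as given further on, and the 250 bases before their RefSeq starts (GRCm38.p6) are shown for that reason. Capitals mark GAGGAA or its reverse complement TTCCTC, the core letters bound by PU.1, a transcription factor of macrophages. Each is written 5′ to 3′ on the strand of the gene.
Mertk (chr2:128698665-128698914, plus strand): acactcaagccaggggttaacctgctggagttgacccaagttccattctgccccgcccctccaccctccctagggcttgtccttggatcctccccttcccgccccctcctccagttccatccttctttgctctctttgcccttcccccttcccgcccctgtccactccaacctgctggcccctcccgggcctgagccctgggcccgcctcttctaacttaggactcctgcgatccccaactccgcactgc
Gas6 (chr8:13494536-13494785, minus strand): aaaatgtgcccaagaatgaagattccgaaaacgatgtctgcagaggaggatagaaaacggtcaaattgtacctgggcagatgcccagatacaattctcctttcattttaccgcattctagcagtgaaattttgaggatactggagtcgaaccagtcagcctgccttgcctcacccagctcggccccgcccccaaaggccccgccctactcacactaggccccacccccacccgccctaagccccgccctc
Stab1 (chr14:31168642-31168891, minus strand): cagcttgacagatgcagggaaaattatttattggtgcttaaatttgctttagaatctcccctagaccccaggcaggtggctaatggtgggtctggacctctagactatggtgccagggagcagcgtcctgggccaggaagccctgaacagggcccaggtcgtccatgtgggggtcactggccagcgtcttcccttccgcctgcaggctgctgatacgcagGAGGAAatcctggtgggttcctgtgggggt

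The core was found once in the window of Stab1 and not in those of Mertk or Gas6. Among all 9 genes 4 windows held it, as did 23.3% of 32851 windows of this length, and a match describes letters, not binding.

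Across the 4 main classes, Mertk, Gas6 and Stab1 were macrophage genes in these tumours. Tyro3 and Mfge8 were highest in cancer cells, and Cd36 was highest in dendritic cells in 3 of 4 libraries. Axl and Itgav were of similar level in macrophages and cancer cells, and Pros1 was higher in cancer cells in every library. Classes were compared within libraries, with the UMIs of each class summed per library and the library as a term, by the quasi-likelihood test of edgeR with Benjamini-Hochberg adjustment over 13724 genes.

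Between macrophages and dendritic cells 8 of the 9 genes passed an adjusted p of 0.05, 7 higher in macrophages and 1 lower, where 34.3% of all genes tested passed. Between macrophages and neutrophils 8 passed, 7 higher and 1 lower (68.1% of all genes), and between macrophages and cancer cells all 9 passed, 6 higher and 3 lower (66.7% of all genes). The last 2 shares of all genes are high, so a call there is the usual outcome and the size of the difference carries more. The median log2 difference of the 9 genes was 1.85 against dendritic cells, 2.44 against neutrophils and 0.57 against cancer cells, beside 0.17, -0.04 and 0.03 over all genes tested.

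**Figure D1:**
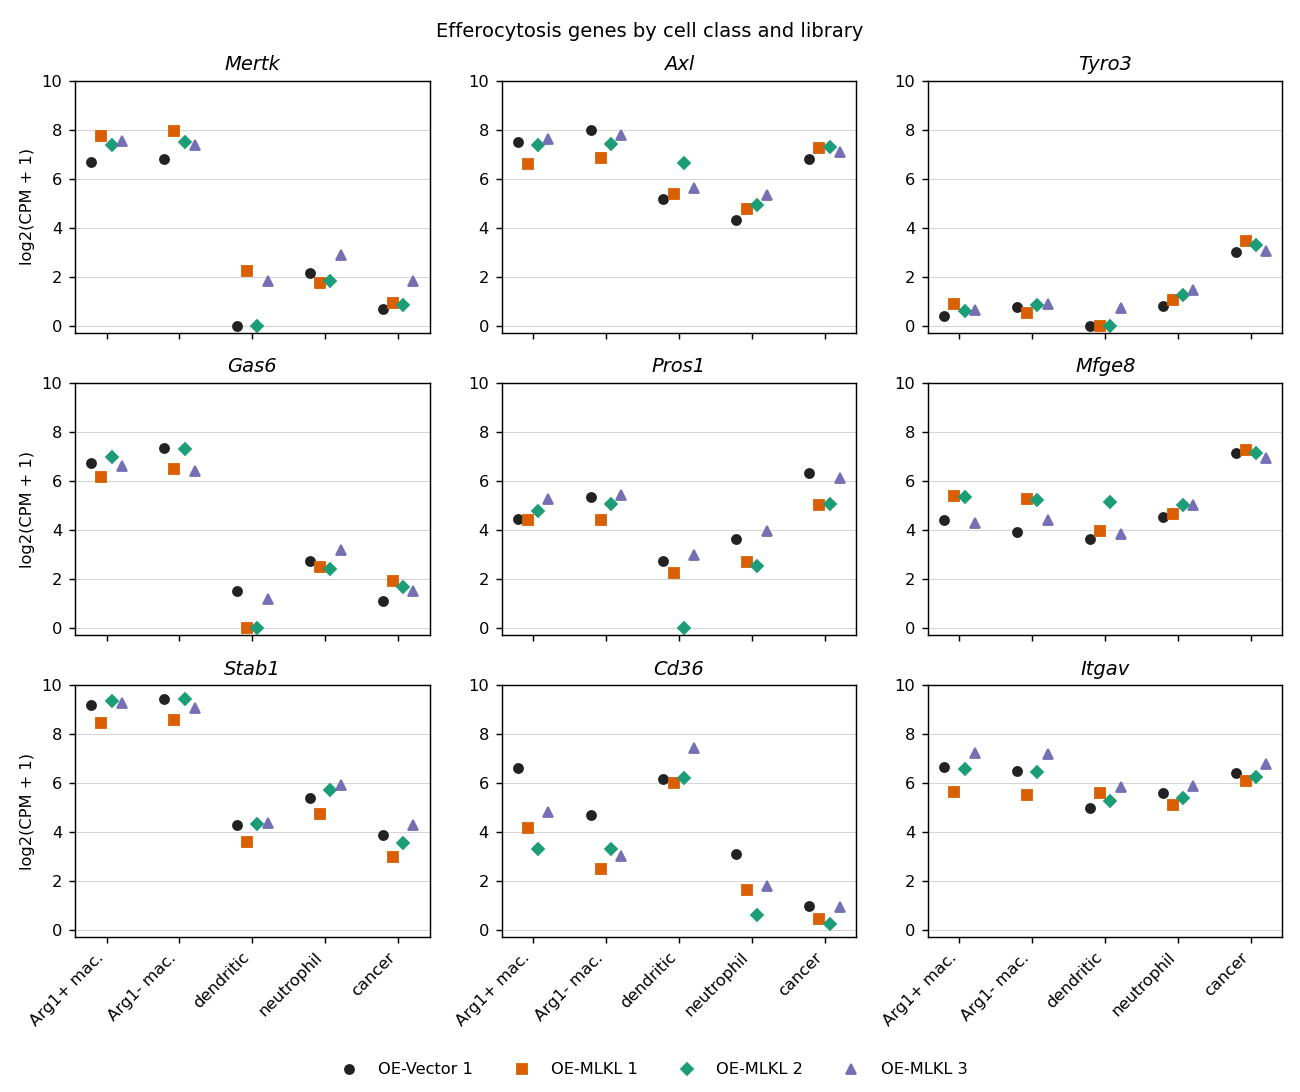
Level of each gene as log2(CPM + 1) in Arg1-positive and Arg1-negative macrophages, dendritic cells, neutrophils and cancer cells, 1 point per library (circle OE-Vector 1, square, diamond and triangle OE-MLKL 1, 2 and 3). Mertk, Gas6 and Stab1 stand highest in both macrophage classes, Tyro3 and Mfge8 in cancer cells, and the circle of Cd36 in macrophages, 84.4 CPM over both gates, stands above the other 3 libraries.

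Among the receptor kinases, Mertk is the one that macrophages use for steady clearance of dead cells. Macrophages held 104 CPM of Mertk in OE-Vector 1 and 232, 169.8 and 179 CPM in OE-MLKL 1, 2 and 3. Neutrophils held 3.43, 2.33, 2.58 and 6.50 CPM in the same order, and cancer cells 0.608, 0.914, 0.785 and 2.52 CPM. No library of any other main class came near the lowest macrophage value. Dendritic cells gave 0, 1, 0 and 4 UMIs of Mertk, and the zeros allow up to 2.82 CPM in OE-Vector 1 and 11.4 CPM in OE-MLKL 2 (3 counts of the class total, counting error only). The mean was 171 ± 52.7 CPM (SD, n = 4) in macrophages, while neutrophils at 3.71 ± 1.92, dendritic cells at 1.55 ± 1.85 and cancer cells at 1.21 ± 0.885 CPM overlapped one another. Within libraries Mertk was 27.6-fold to 99.4-fold higher in macrophages than in neutrophils and 71.1-fold to 254-fold higher than in cancer cells (log2 differences of 5.37 ± 0.30 and 7.60 ± 0.30 (SE), edgeR adjusted p = 1.98e-10 and 1.08e-12). Free RNA, read from barcodes of at most 100 UMIs, gave 17.4 to 33.1 CPM, above every neutrophil and cancer cell value.

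Axl is the relative of Mertk that is induced in inflammation and in many tumours. Macrophages held 193 CPM in OE-Vector 1 and 105, 166 and 207 CPM in OE-MLKL 1, 2 and 3, and cancer cells held 113, 151, 155 and 136 CPM. The 2 classes overlapped, and in OE-MLKL 1 the order was turned, with macrophages at 0.693 times the cancer cell level. The difference of 0.57 ± 0.21 on the log2 scale passed in edgeR (adjusted p = 0.0221) but was lost in 7 of the alternatives, among them scaling by library size alone (adjusted p = 0.282) and leaving out OE-Vector 1 (adjusted p = 0.232) or OE-MLKL 3 (adjusted p = 0.123). Dendritic cells held 34.7, 40.5, 98.9 and 48.7 CPM and neutrophils 18.9, 26.5, 29.1 and 39.6 CPM. Macrophages were above both in 4 of 4 libraries, by 1.85 ± 0.25 and 2.44 ± 0.22 on the log2 scale (edgeR adjusted p = 2.03e-05 and 6.5e-08). Free RNA held 124, 152, 157 and 134 CPM of Axl. Neutrophils and dendritic cells lay under it in every library, cancer cells lay slightly under it in 3 of 4 and slightly above it in OE-MLKL 3, and macrophages lay under it in OE-MLKL 1 and above it in the other 3.

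Tyro3, the kinase of this family best known from neurons, was sparse throughout. It reached 445, 585, 486 and 307 UMIs in cancer cells, which is 7.12 CPM in OE-Vector 1 and 9.91, 8.87 and 7.37 CPM in OE-MLKL 1, 2 and 3. Macrophages held only 6, 7, 6 and 13 UMIs of Tyro3 (0.368 to 0.676 CPM), neutrophils 6, 4, 8 and 16 (0.763 to 1.70 CPM) and dendritic cells 0, 0, 0 and 1. Each library of cancer cells was above each library of the other main classes, and the macrophage level was lower by 3.55 ± 0.26 on the log2 scale (edgeR adjusted p = 1.57e-09). Free RNA lay at 6.27 to 8.17 CPM, close to the cancer cell level. The call between macrophages and neutrophils (a log2 difference of -1.27 ± 0.34, adjusted p = 0.0033) was lost when doublets were kept (adjusted p = 0.212), and that against dendritic cells did not pass (0.86 ± 1.05, adjusted p = 0.674).

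Of the bridging proteins, Gas6, which binds all 3 kinases, followed Mertk. Its macrophage level was 117 CPM in OE-Vector 1 and 78.8, 134 and 92.1 CPM in OE-MLKL 1, 2 and 3. Neutrophils held 4.30 to 7.99 CPM and cancer cells 1.15 to 2.73 CPM, both under the 18.0 to 25.1 CPM of free RNA, and dendritic cells 2, 0, 0 and 2 UMIs in all. Macrophages were thus the only one of the 4 main classes with a Gas6 level above free RNA. The log2 difference was 4.03 ± 0.27 against neutrophils and 6.05 ± 0.27 against cancer cells (edgeR adjusted p = 1.6e-09 and 3.5e-12). The most Gas6 of any gated class was in the few fibroblast and mesothelial cells, at 521, 485, 833 and 526 CPM over 14, 15, 25 and 15 cells.

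Pros1, which encodes the anticoagulant protein S and binds Mertk and Tyro3, was divided between tumour and stroma. Cancer cells held 80.0 CPM in OE-Vector 1 and 31.5, 32.3 and 68.7 CPM in OE-MLKL 1, 2 and 3. Macrophages held 24.0, 20.3, 28.1 and 39.3 CPM, lower than the cancer cells of the same library in 4 of 4 but overlapping them across libraries. The log2 difference of -0.52 ± 0.20 (edgeR adjusted p = 0.0257) was lost without the library term (adjusted p = 0.149), without OE-Vector 1 (adjusted p = 0.167) and without OE-MLKL 3 (adjusted p = 0.0879). Cancer cells were high in OE-Vector 1 and OE-MLKL 3 and low in OE-MLKL 1 and 2. The median cancer cell held 26283 and 22088.5 UMIs in the first pair and 12482 and 12403 UMIs in the second, and the part of depth in the Pros1 levels was not tested. Macrophages exceeded neutrophils by 1.55 ± 0.22 and dendritic cells by 2.72 ± 0.39 on the log2 scale (edgeR adjusted p = 1.26e-05 and 2.93e-05), though dendritic cells held only 6, 1, 0 and 11 UMIs and free RNA lay at 29.8 to 59.1 CPM. Macrophages lay under the free RNA of their library except in OE-MLKL 3, where it was 37.5 CPM. Neutrophils and dendritic cells lay under it in every library, and cancer cells slightly under it in OE-MLKL 2 alone.

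Mfge8, the bridge to alpha V integrins, was the bridging gene of the cancer cells, with 140.3 CPM in OE-Vector 1 and 152, 142 and 122 CPM in OE-MLKL 1, 2 and 3. In macrophages the values were 19.2, 39.1, 39.0 and 19.1 CPM. Cancer cells were the higher of the 2 in every library, and their levels varied by far less (139 ± 12.4 CPM, SD, n = 4) than the gap of 2.02 ± 0.19 on the log2 scale (edgeR adjusted p = 4.66e-08). Macrophages at 29.1 ± 11.5 CPM and neutrophils at 27.4 ± 5.06 CPM (SD, n = 4) overlapped, with a log2 difference of -0.13 ± 0.19 (adjusted p = 0.564). The call over dendritic cells (0.87 ± 0.29, adjusted p = 0.0302) was lost under 4 other scalings, tests or filters, turned to -1.31 with cells named by cluster (adjusted p = 0.0886), and was lost without OE-Vector 1, OE-MLKL 1 or OE-MLKL 3 (adjusted p = 0.144, 0.151 and 0.0612). Named by cluster, the dendritic cells of OE-Vector 1 take in 1 cell with 354 Mfge8 UMIs that the gate put with T, NK and B cells. Its part in the turned value was not tested. Free RNA held 80.4 to 135 CPM of Mfge8, above the level in macrophages, neutrophils and dendritic cells.

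Stab1, a receptor that binds phosphatidylserine directly and marks macrophages of tumours and sinusoids, was the most widely detected of the 9 genes in macrophages, in 65.0% to 85.0% of them. Thinned to 1000 UMIs per cell, the OE-Vector 1 share was 39.3% and those of OE-MLKL 1, 2 and 3 were 28.8%, 44.8% and 40.9%. The cancer cells, which should lack it, gave 1.41%, 0.712%, 1.11% and 1.90% at the same thinned depth. The macrophage levels were 609.9 CPM in OE-Vector 1 and 369, 668 and 596 CPM in OE-MLKL 1, 2 and 3, with OE-MLKL 1 standing low. Neutrophils held 41.4, 25.7, 52.2 and 59.4 CPM, dendritic cells 11.1 to 19.6 CPM and cancer cells 6.96 to 18.7 CPM. Macrophages exceeded these classes by 3.55 ± 0.15, 5.16 ± 0.20 and 5.84 ± 0.17 on the log2 scale (edgeR adjusted p = 1.47e-11, 1.56e-11 and 8e-14), higher in 4 of 4 libraries each time. Free RNA held 75.6 to 185 CPM, more than any of the 3 lower classes.

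Cd36, the scavenger receptor for oxidised lipids and thrombospondin, differed widely between the libraries in macrophages. In dendritic cells it stood at 70.4 CPM in OE-Vector 1 and at 62.6, 72.3 and 172 CPM in OE-MLKL 1, 2 and 3. In macrophages it stood at 84.4 CPM in OE-Vector 1 and at 11.6, 8.91 and 19.95 CPM in OE-MLKL 1, 2 and 3. The macrophages of OE-Vector 1 were thus level with the dendritic cells, at 1.20 times their value, while those of the other 3 libraries were at 0.116 to 0.185 times. The log2 difference was -1.90 ± 0.44 (edgeR adjusted p = 0.0028). It was -1.22 without OE-MLKL 3 (adjusted p = 0.109), -1.51 with no library term (adjusted p = 0.1396) and -2.90 without OE-Vector 1 (adjusted p = 1.56e-06).

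Gated dendritic cells were divided by the list of which they held the largest share of markers. Ties went to the Xcr1 list first, and Flt3 is also in the Cd209a list. The Cd36 of dendritic cells was carried by those assigned to Xcr1, Clec9a, Wdfy4, Itgae and Flt3, the markers of cells that cross-present antigen. They were 50 of 105, 33 of 46, 27 of 47 and 137 of 168 dendritic cells, and they held 73 of 75, 17 of 17, 19 of 19 and 271 of 273 Cd36 UMIs. Their level was 104 CPM in OE-Vector 1 and 76.1, 102 and 194 CPM in OE-MLKL 1, 2 and 3. Cells assigned to Ccr7, Fscn1, Ccl22, Cacnb3 and Il4i1, markers of mature dendritic cells, held 7.14, 0, 0 and 14.7 CPM over 46, 7, 15 and 23 cells. Cells assigned to Cd209a and its list held no Cd36 UMI in 9, 6, 5 and 8 cells. The mixture of these kinds differed between libraries, and so did the Cd36 level within the first kind; the part of the mixture in the dendritic level was not tested. In neutrophils Cd36 was at 7.63, 2.07, 0.516 and 2.45 CPM, and 24 of the 60 UMIs of OE-Vector 1 came from 1 cell.

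Itgav was the most even of the 9 genes. Macrophages held 98.4 CPM in OE-Vector 1 and 47.4, 93.3 and 149 CPM in OE-MLKL 1, 2 and 3, cancer cells 85.1, 67.3, 75.9 and 110.0 CPM, neutrophils 47.5, 33.5, 40.6 and 58.5 CPM and dendritic cells 31.0, 47.9, 38.1 and 56.2 CPM. Macrophages and cancer cells overlapped (97.1 ± 41.8 and 84.6 ± 18.4 CPM, SD, n = 4), as did neutrophils and dendritic cells (45.02 ± 10.7 and 43.3 ± 11.1 CPM). The call of macrophages over cancer cells (0.44 ± 0.16, edgeR adjusted p = 0.0246) was lost under 8 alternatives, including the removal of OE-Vector 1, OE-MLKL 2 or OE-MLKL 3 (adjusted p = 0.104, 0.128 and 0.173). Within libraries macrophages held more than neutrophils in 4 of 4 (0.91 ± 0.17 on the log2 scale, adjusted p = 0.000143) and more than dendritic cells in 3 of 4 (1.29 ± 0.21, adjusted p = 0.000118), with a ratio to dendritic cells of 0.990 in OE-MLKL 1. Across libraries the ranges overlapped in both comparisons, since the macrophages of OE-MLKL 1 at 47.4 CPM lay below the neutrophils and dendritic cells of OE-MLKL 3. Free RNA held 94.5 CPM in OE-Vector 1 and 79.5, 89.0 and 97.0 CPM in OE-MLKL 1, 2 and 3, above the neutrophil and dendritic levels. Cancer cells lay under it in every library but OE-MLKL 3. Macrophages lay under it in OE-MLKL 1 and only slightly above it in OE-Vector 1 and OE-MLKL 2. T, NK and B cells held more than any of these, at 124, 185, 154 and 238 CPM.

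**Figure D2:**
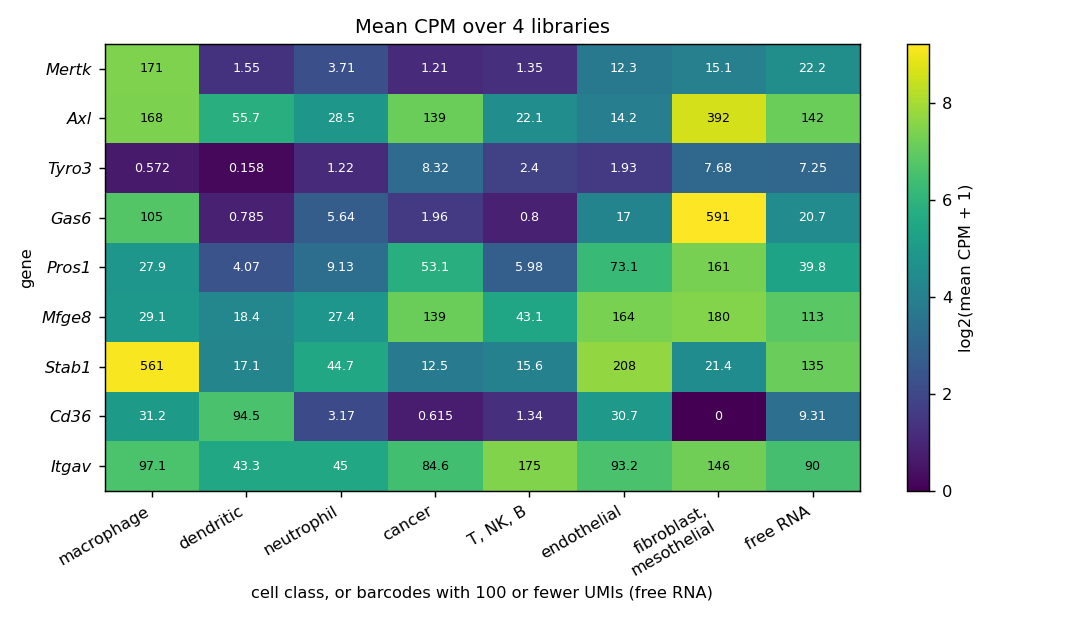
Mean level over 4 libraries in CPM (numbers) with colour as log2(mean CPM + 1), for 7 gated classes and for free RNA. Read along a row, Mertk at 171 CPM and Stab1 at 561 CPM are highest in macrophages, Gas6 at 591 CPM and Axl at 392 CPM in the 69 fibroblast and mesothelial cells, and Cd36 at 94.5 CPM in dendritic cells.

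The macrophages were next divided by Arg1, the arginase of alternatively activated and suppressive macrophages. A cell with at least 1 UMI was taken as Arg1-positive, which gave 1447 of 1904 cells in OE-Vector 1 and 1175 of 2364, 1494 of 2137 and 1611 of 2758 in OE-MLKL 1, 2 and 3. These are shares of 76.0%, 49.7%, 69.9% and 58.4%, or 46.5%, 26.1%, 39.6% and 26.1% when cells were thinned to 1000 UMIs. Arg1-positive cells were deeper, with medians of 8793, 4603, 4981.5 and 7329 UMIs against 6303, 3542, 3939 and 6139, so depth moved with the gate. Summed monocyte markers (Ly6c2, Ccr2, Plac8, Chil3, Vcan and Ms4a4c) were also higher in them, at 422, 1766, 1115 and 432 CPM against 284, 495, 411 and 217 CPM, and their part in the differences was not tested. Chil3 alone stood at 935 CPM in the macrophages of the cluster led by Cd163 and Jaml, described below, so the sum need not stand for monocytes.

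Of the 8 genes tested between the 2 gates (Tyro3 was too sparse), 1 passed, Cd36, where 6.39% of all 11690 genes tested passed. Arg1-positive macrophages held 96.9 CPM of Cd36 in OE-Vector 1 and 16.9, 8.88 and 27.2 CPM in OE-MLKL 1, 2 and 3, and Arg1-negative ones 25.3, 4.65, 8.996 and 7.06 CPM. The fold was 3.83, 3.64 and 3.86 in 3 libraries and 0.987 in OE-MLKL 2, with a log2 difference of 1.77 ± 0.19 (edgeR adjusted p = 2.12e-05). Without the library term it was not called (1.85, edgeR adjusted p = 0.9996). It was also not called when the Nos2-led macrophage cluster described below was left out.

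The other 7 genes were not called between the gates. Mertk was level at 102, 217, 166 and 185 CPM in Arg1-positive and 112, 251, 180.3 and 168 CPM in Arg1-negative macrophages (a log2 difference of -0.03 ± 0.06, adjusted p = 0.873), and Stab1 at 593, 357, 657 and 626 against 689.8, 385, 702 and 544 CPM (0.00 to 2 decimals, adjusted p = 0.986). Axl was lower in the Arg1-positive cells of 4 of 4 libraries, at 180.0, 97.8, 164 and 199 against 252, 113, 172 and 222 CPM, by -0.19 ± 0.06 (adjusted p = 0.103). Gas6 was at 106, 71.2, 127 and 96.0 against 165, 88.8, 157 and 85.3 CPM, lower in 3 of 4 (adjusted p = 0.183), and only without OE-MLKL 3 did it pass (-0.36, adjusted p = 0.0182). Pros1, Mfge8 and Itgav had adjusted p-values of 0.172, 0.479 and 0.151.

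The comparison of tumours labelled OE-MLKL with those labelled OE-Vector asked whether the labelled groups differed in these genes in any class. It set 3 libraries against 1, so that the spread comes from the libraries labelled OE-MLKL alone, the single OE-Vector library is taken to vary as they do, and a difference between the groups cannot be told apart from a difference between tumours. The study's methods describe 3 tumours per group, while the labels do not tie a library to an animal, and p-values measure the spread between these samples. An exact permutation test of 1 against 3 cannot go below p = 0.25.

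In edgeR none of the 9 genes passed in any class. The genes tested were 8 in macrophages, where 0.0294% of all 13611 genes passed, 8 in Arg1-positive macrophages (0.0762% of 13115), 8 in Arg1-negative macrophages (0% of 11733), 5 in dendritic cells (0.0738% of 8131), 9 in neutrophils (0% of 13046) and 9 in cancer cells (0% of 16238). At an unadjusted p under 0.05 there were 1, 2, 1, 0, 1 and 1 of them, next to 815, 821, 589, 367, 1147 and 692 of all genes. DESeq2 called 1 of the 9 in macrophages and 1 in Arg1-positive macrophages, Cd36 in both, and none in the other 4 classes. Over all genes it called 69, 74, 11, 3, 106 and 72. Limma-voom called none of the 9 in any class, and 0, 6, 0, 11, 0 and 0 of all genes. The median log2 difference of the tested members was -0.22, -0.20, -0.39, 0.62, -0.09 and -0.10 in the 6 classes, beside 0.04, 0.04, 0.04, 0.04, 0.06 and 0.03 over all genes.

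**Figure D3:**
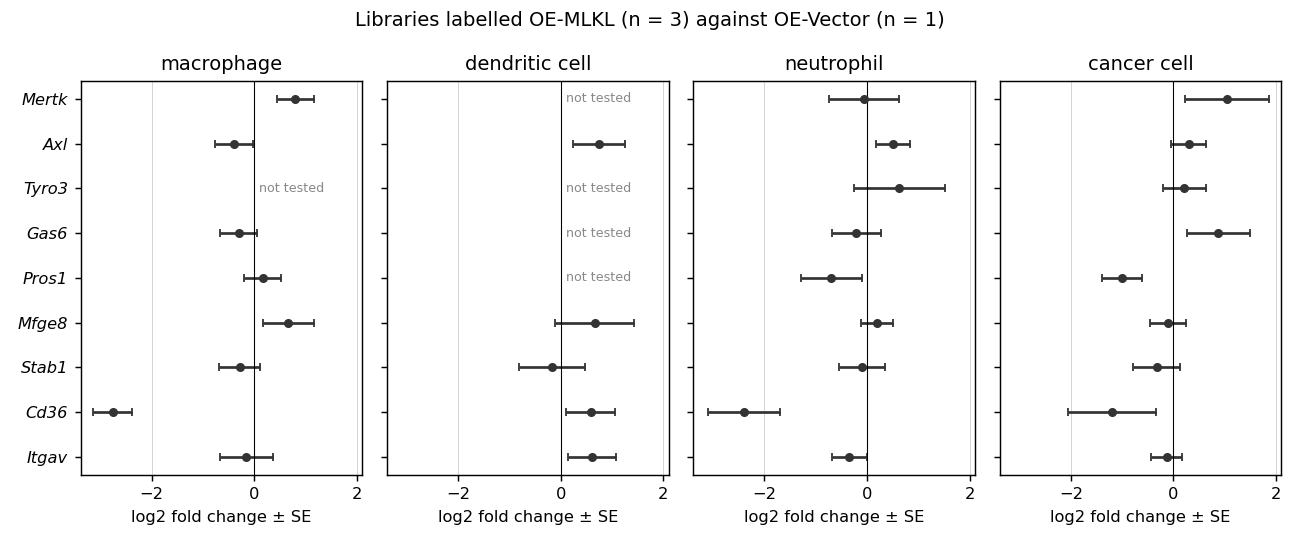
Log2 fold change ± SE (edgeR, SE derived from the F statistic) of the 3 libraries labelled OE-MLKL over OE-Vector 1 in macrophages, dendritic cells, neutrophils and cancer cells. Genes too sparse for the filter are marked as not tested. Cd36 in macrophages at -2.76 ± 0.38 lies farthest from 0, and no gene passed an adjusted p of 0.05.

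Cd36 in macrophages was the value farthest apart. It stood at 84.4 CPM (1376 UMIs) in OE-Vector 1 and at 11.6, 8.91 and 19.95 CPM (120, 94 and 384 UMIs) in the libraries labelled OE-MLKL, a mean of 13.5 ± 5.76 (SD, n = 3). The groups did not overlap. The log2 difference was -2.76 ± 0.38 (SE), with an unadjusted edgeR p of 0.000166 and an adjusted p of 0.128. Across the settings tried the difference stayed between -3.10 and -2.56 apart from the one that left out a cluster, and the adjusted p ran from 9.18e-06 with DESeq2 to 0.347 with doublets kept. It was 0.0129 with no filter on low counts, where 0.115% of all genes passed. It was 0.00033 without OE-MLKL 1, 0.223 without OE-MLKL 2 and 0.00081 without OE-MLKL 3, where 0.54%, 0% and 1.86% of all genes passed. Thinned to 1000 UMIs per cell, 5.67% of macrophages held a Cd36 UMI in OE-Vector 1 and 0.873%, 0.737% and 1.59% in the other 3 (unthinned 18.2%, 2.50%, 2.34% and 6.27%), where cancer cells, which should lack it, gave 0.0151% to 0.102%. Free RNA held 18.3 CPM in OE-Vector 1 and 8.88, 3.004 and 7.06 CPM in the others.

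Both Arg1 gates showed the same order of groups. In Arg1-positive macrophages Cd36 differed by -2.57 ± 0.46 (edgeR adjusted p = 0.306, DESeq2 adjusted p = 0.00079) and in Arg1-negative ones by -1.94 ± 0.40 (unadjusted p = 0.0018, adjusted p = 0.887). The difference between these effects was -0.43 ± 0.36 (adjusted p = 0.841). The Arg1-negative levels were 25.3 CPM in OE-Vector 1 and 4.65 to 8.996 CPM in the others, on 21 to 72 UMIs. Free RNA stood beside them at 18.3 CPM in OE-Vector 1 and 8.88, 3.004 and 7.06 CPM in OE-MLKL 1, 2 and 3. The part of free RNA in these levels was not tested. Among neutrophils Cd36 was lower by 2.40 ± 0.70 (adjusted p = 0.486), on 60 UMIs, 24 of them in 1 cell, against 8, 3 and 23. The cell with 24 of these UMIs held 13330 UMIs in all and lay in the Nos2-led macrophage cluster described next. The neutrophil levels of Cd36 lay under free RNA in every library, and free RNA was also highest in OE-Vector 1. Dendritic cells did not share the direction, with a log2 difference of 0.58 ± 0.48 (adjusted p = 0.997), which was -0.01 without OE-MLKL 3.

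The Cd36 of the OE-Vector macrophages was concentrated in few of them. Clusters of all cells were built from variable genes without the 9 members, and the macrophages of 1 cluster, led by Nos2, Mmp12, Adm, Mmp8 and Tnfrsf9, had the highest Cd36. It held 298 of 1904 macrophages in OE-Vector 1 (15.7%) and 65 of 2364 (2.75%), 48 of 2137 (2.25%) and 44 of 2758 (1.60%) in OE-MLKL 1, 2 and 3. Nos2 encodes inducible nitric oxide synthase and Mmp12 macrophage elastase. Within this cluster Cd36 stood at 435 CPM in OE-Vector 1 and at 163, 129 and 236 CPM in the others, and outside it at 22.7, 6.57, 5.74 and 16.5 CPM. Free RNA held 18.3, 8.88, 3.004 and 7.06 CPM in the same order, and its part in the outside levels was not tested. The cluster thus carried 77.1% of the macrophage Cd36 UMIs of OE-Vector 1 and 45%, 37.2% and 18.8% of those in OE-MLKL 1, 2 and 3. OE-Vector 1 was highest inside the cluster and over all macrophages outside it, but not in each cluster outside that had at least 20 macrophages in every library. In the cluster led by Cd163 and Jaml, Cd36 was at 49.9 CPM in OE-Vector 1 and at 6.48, 6.04 and 53.3 CPM in OE-MLKL 1, 2 and 3, and in that led by Gpr171, Itgax and Cd72 at 21.8 CPM and at 0, 2.64 and 16.4 CPM. There the 0 came from 24 macrophages of OE-MLKL 1 and the 2.64 CPM from 2 UMIs in 108 macrophages of OE-MLKL 2, too few for a firm level. The fourth of these, a shallow cluster, held at most 1 Cd36 UMI per library, and the macrophages of smaller or unevenly filled clusters are counted in the pooled outside level alone.

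With these macrophages left out, the log2 difference of Cd36 was -1.34 between the labelled groups and 0.79 between the Arg1 gates, where it was no longer called. The cluster was chosen for its Cd36 after the levels were seen, so smaller values follow from the choice and are no test. Mertk was lower in this cluster than in the other 2 macrophage clusters described next, at 50.9 CPM in OE-Vector 1 and 78.5, 62.5 and 88.7 CPM in OE-MLKL 1, 2 and 3.

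**Figure D4:**
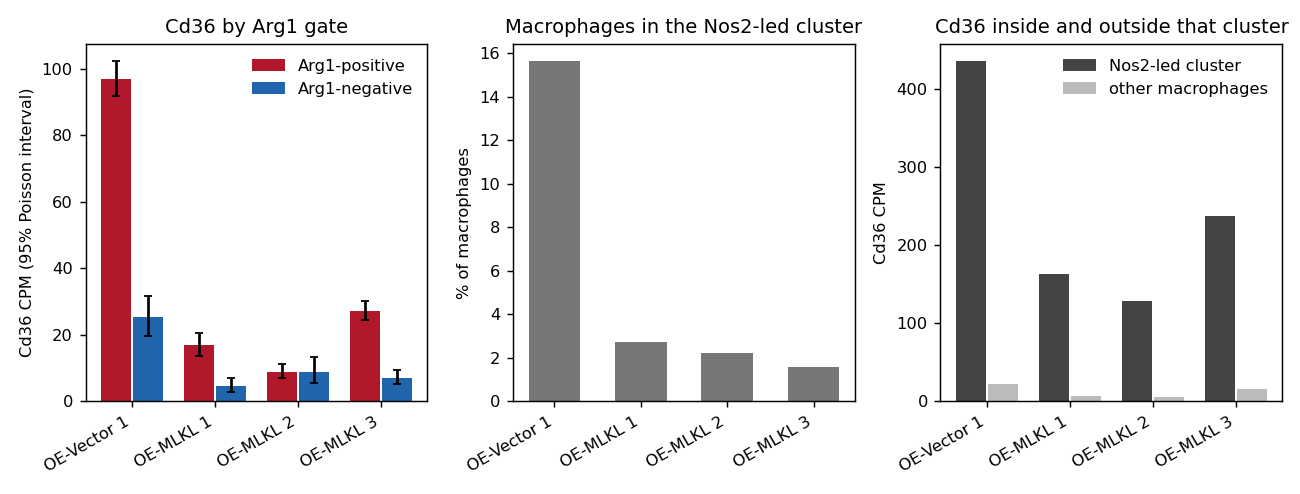
Cd36 in macrophages by library: CPM by Arg1 gate with exact 95% Poisson intervals, which cover counting error only (left), the share of macrophages in the Nos2-led cluster in percent (middle) and CPM inside and outside that cluster (right). OE-Vector 1 stands highest in all 3 panels, with 96.9 CPM in Arg1-positive cells, 15.7% of macrophages in the cluster and 435 CPM inside it.

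Mertk ran the other way. All 3 libraries labelled OE-MLKL, at 232, 169.8 and 179 CPM (194 ± 33.4, SD, n = 3), were above the 104 CPM of OE-Vector 1, and the log2 difference was 0.81 ± 0.36 (edgeR adjusted p = 0.849). It was 0.80 ± 0.34 in Arg1-positive and 0.81 ± 0.40 in Arg1-negative macrophages (adjusted p = 0.795 and 0.887). The thinned share of Mertk-positive macrophages was 9.44% against 21.0%, 15.9% and 16.2%, with 0.0867% to 0.427% in cancer cells.

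Most other macrophages lay in 2 clusters that divided the libraries. That led by Cd163 and Jaml held 93.6% and 85.8% of the macrophages of OE-MLKL 1 and 2 but 13.5% and 5.51% of those of OE-Vector 1 and OE-MLKL 3, and that led by Gpr171, Itgax and Cd72 held 59.1% and 79.9% of the latter and 1.02% and 5.05% of the former. Within the first, Mertk stood at 75.3 CPM in OE-Vector 1 and at 243, 180.3 and 188 CPM in OE-MLKL 1, 2 and 3. Within the second it stood at 125 CPM and at 197, 185 and 195 CPM. OE-Vector 1 was lowest in both, on 104 Mertk UMIs in the first. The OE-MLKL 1 value in the second came from 36 UMIs in 24 macrophages. The part of the cluster mixture in the Mertk difference was not tested.

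Among the other genes, Tyro3 was also outside the range in all macrophages, on 6 UMIs in OE-Vector 1 against 7, 6 and 13 (0.368 against 0.569 to 0.676 CPM), too few for a test. OE-Vector 1 lay within the range of the libraries labelled OE-MLKL for Axl, Gas6, Pros1, Mfge8, Stab1 and Itgav, with log2 differences of -0.40 ± 0.37, -0.30 ± 0.36, 0.16 ± 0.36, 0.66 ± 0.50, -0.28 ± 0.40 and -0.16 ± 0.52 in this order. In Arg1-negative macrophages alone OE-Vector 1 was outside the range for Axl (252 against 113 to 222 CPM), Gas6 (165 against 85.3 to 157 CPM) and Mfge8 (14.0 against 20.3 to 37.4 CPM), none of them called. Over all macrophages Mfge8 was alike in OE-Vector 1 and OE-MLKL 3 (19.2 and 19.1 CPM) and in OE-MLKL 1 and 2 (39.1 and 39.0 CPM), the pairing also seen in depth and in the macrophage clusters.

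In cancer cells Axl was higher in all 3 libraries labelled OE-MLKL (151, 155 and 136 against 113 CPM), by 0.30 ± 0.34 on the log2 scale (edgeR adjusted p = 0.999). Pros1 was lower in all 3, by 1.001 ± 0.39 (unadjusted p = 0.0371, adjusted p = 0.999). That value rested on OE-MLKL 1 and 2, since OE-MLKL 3 at 68.7 CPM stood near the 80.0 CPM of OE-Vector 1, and without OE-MLKL 3 the log2 difference was -1.33 (adjusted p = 0.0097). That fit called 4.03% of all genes, and the 2 libraries labelled OE-MLKL left in it were the shallow pair, with medians of 12482 and 12403 UMIs per cancer cell against 26283 in OE-Vector 1. Mfge8 and Itgav differed by -0.10 ± 0.35 and -0.13 ± 0.31. In neutrophils Axl was higher in all 3 libraries (26.5, 29.1 and 39.6 against 18.9 CPM), by 0.51 ± 0.33 (adjusted p = 0.688), at levels under that of free RNA. In dendritic cells Axl was likewise higher in all 3, by 0.74 ± 0.50 (adjusted p = 0.997), on 37 UMIs against 11, 26 and 77. Within the cells of the Xcr1 list alone it was at 44.3 CPM in OE-Vector 1 and 49.3, 118 and 52.4 CPM in the others, while the cells of the Ccr7 list, which were 46 of 105 dendritic cells in OE-Vector 1 and 7 of 46, 15 of 47 and 23 of 168 in the others, held 21.4, 0, 18.9 and 7.35 CPM; the part of this mixture was not tested. Axl was not alone in this order of groups. OE-Vector 1 was also the lowest library for Mertk, Tyro3 and Gas6 in cancer cells (log2 differences of 1.04, 0.21 and 0.88), for Tyro3 and Mfge8 in neutrophils (0.63 and 0.19) and for Mfge8 and Itgav in dendritic cells (0.66 and 0.62), and none of these was called with the gated cells. It was the highest library for Pros1 and Cd36 in cancer cells and for Cd36 in neutrophils. Cd36 in cancer cells was at 0.992 against 0.183 to 0.913 CPM (a log2 difference of -1.19, not called). Gas6 in dendritic cells was also highest there, at 1.88 against 0 to 1.26 CPM, too sparse for a test. How many of all genes had OE-Vector 1 as the lowest or highest library was not counted in any class. With dendritic cells named by cluster, the sign of the Mfge8 difference was reversed and it was called, as given under the processing.

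Whether the effect of the label differed between the Arg1 gates was tested directly. None of the 8 genes tested passed in edgeR, DESeq2 or limma-voom, where 0.249% of all 12859 genes passed in edgeR, although 4 were under an unadjusted p of 0.05, out of 1040 of all genes. DESeq2 called 8 and limma-voom 30 of all genes. The smallest p was that of Pros1, which in Arg1-positive cells was at 20.7 against 20.5, 26.6 and 37.7 CPM and in Arg1-negative cells at 40.0 against 20.1, 32.5 and 42.2 CPM (a difference of effects of 0.73 ± 0.19, unadjusted p = 0.0015, adjusted p = 0.209).

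A further 64 genes of dead-cell clearance were counted, and none passed between the libraries labelled OE-MLKL and OE-Vector among the 58, 58, 55, 38, 57 and 59 tested in the 6 classes. Macrophages were higher than dendritic cells in 31 and lower in 5 of 59, higher than neutrophils in 26 and lower in 23, and higher than cancer cells in 44 and lower in 10. The shares of all genes that passed are those given with the 9 genes. Of the engulfment receptors among them 10 of 17 were higher in macrophages than in dendritic cells and 1 lower, 7 and 9 against neutrophils, and 13 and 2 against cancer cells. Those of digestion and lipid efflux were 6 and 0, 7 and 4, and 12 and 1 of 13. Trem2 and Msr1 were among the 4 smallest adjusted p-values against each class. Trem2, a lipid receptor of macrophages, was at 497, 467, 593 and 482 CPM in macrophages and at most 11.4 CPM in dendritic cells (6.11 ± 0.33 on the log2 scale), and Msr1, a class A scavenger receptor, at 269, 194, 297 and 245 CPM against at most 7.37 CPM (6.06 ± 0.35). Lrp1, a receptor for calreticulin on dead cells, exceeded dendritic cells by 4.13 ± 0.21, and Abca1, the cholesterol exporter induced after engulfment, by 6.71 ± 0.33, on 0 to 14 dendritic UMIs. Against cancer cells Dock2, an activator of Rac in blood cells, differed by 6.47 ± 0.24, and against neutrophils Itgb5, an integrin partner of alpha V, by 3.18 ± 0.19 and the phosphatidylserine-binding Anxa5 by 2.13 ± 0.13.

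Between the Arg1 gates 11 of 54 tested were higher in Arg1-positive macrophages and 2 lower, beside 469 higher and 278 lower (6.39% in all) of the 11690 genes tested. Of the engulfment receptors 6 of 14 were higher and 1 lower, of the bridging or eat-me proteins 3 of 7 higher, of digestion and efflux 1 of 13 higher, of the find-me genes 1 higher and 1 lower of 10, and of the engulfment machinery 0 of 10 passed. The lower ones were Cd300a, an inhibitory receptor for phosphatidylserine (-0.31 ± 0.066), and the fractalkine receptor Cx3cr1 (-0.29 ± 0.062). Lgals3, which encodes galectin-3, stood at 1751, 1713, 1263 and 621 CPM in Arg1-positive and at 996, 1216, 899 and 387 CPM in Arg1-negative macrophages (0.67 ± 0.06, edgeR adjusted p = 6.69e-06). Thrombospondin 1, a ligand of Cd36 encoded by Thbs1, stood at 307, 667, 211 and 425 against 128, 466, 121 and 193 CPM (0.97 ± 0.10, adjusted p = 1.11e-05). Msr1 and the scavenger receptor Marco differed by 0.77 ± 0.07 and 2.02 ± 0.30. Marco stood at 18.1, 26.8, 19.3 and 25.1 CPM in Arg1-positive and 0.702, 16.2, 2.74 and 3.75 CPM in Arg1-negative macrophages. The latter rested on 2, 73, 7 and 26 UMIs, so its difference was uneven between libraries. Both gates are cut from the same macrophages, and the depth and monocyte markers given above moved with them.

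Across the 16 sums of the 4 classes and 4 libraries, the members most alike on log2(CPM + 1) were Gas6 and Stab1 (Pearson r = 0.95), Mertk and Stab1 (r = 0.94) and Mertk and Gas6 (r = 0.94), then Tyro3 and Mfge8 (r = 0.92). Sums of a library share its depth and preparation, and each r takes in the differences between classes, whose part was not tested. Among 13649 other genes, and leaving out Tyro3, the closest to Mertk were Gm10134, Trem2 and Msr1 (r = 0.99, 0.98 and 0.98), to Gas6 Selenop, Slco2b1 and Mrc1 (each 0.98) and to Stab1 Mrc1, Ccl7 and Trem2 (each 0.98). Cd36 was closest to Prelid2, Dnase1l3 and Ppfibp2 (0.97, 0.97 and 0.96), Mfge8 to Cd151, Bod1 and Ltbp3 (each 0.97), Axl to Luzp1, Chst14 and Ap1s1 (0.97, 0.96 and 0.96), Pros1 to Map4k3, Aldh2 and Papss1 (0.97, 0.95 and 0.95) and Itgav to Myo1e, Psd3 and Abl2 (0.93, 0.90 and 0.90). Counted per cell, the median macrophage held UMIs of 4, 2, 3 and 4 of the 9 genes in OE-Vector 1 and OE-MLKL 1, 2 and 3, in step with the depth of the libraries, and 3.74% to 7.78% of macrophages held none.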

How the data were processed

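Tumours were digested with DNase I and collagenase, type I per the labels and other types per the study's methods, and profiled with 10x Genomics 3' chemistry. The authors deposited unfiltered UMI counts for 32285 genes; the submitters' processing notes name Cell Ranger 2.1.1 and mm10, while the matrix headers name Cell Ranger 7.1.0. Cells needed at least 500 UMIs, over 200 genes, under 10% mitochondrial and at most 5% haemoglobin UMIs. Simulated-doublet scores removed 0.8% of cells per 1000 cells, 50 neighbours each. A barcode that was a cell in more than 1 library was kept only in a library where it was at least 5-fold deeper, which removed 211 to 292 cells a library.

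A class needed 3 of its markers, each at 1 UMI and 1 per 10000 UMIs, with the runner-up class at no more than 0.67 of its share. Gate markers included C1qa, C1qb, C1qc, Csf1r, Adgre1, Ms4a7 and Fcgr1 for macrophages, S100a8, S100a9, Csf3r, Cxcr2, Retnlg, G0s2, Il1r2, Clec4d, Trem1, Hdc and Mmp9 for neutrophils, and Krt8, Krt18, Krt19, Krt7, Epcam, Cdh1, Cldn4, Cldn7, Tnc, Cadm1 and Col18a1 for cancer cells. Dendritic cells had 3 lists, those led by Xcr1 and Ccr7 that are given with Cd36 and 1 led by Cd209a that is not given in full. Clusters (28, Leiden, resolution 1) used 2000 variable genes without the members, 10 principal components and 20 neighbours.

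UMIs were summed per class and library and tested across all genes with edgeR 4.0.16 (quasi-likelihood, TMM scaling, filterByExpr, Benjamini-Hochberg adjustment, threshold 0.05), with DESeq2 1.42.0 and limma 3.58.1 (voom) as alternatives in R 4.3.3. The steps were run on simulated counts with large planted changes, and every library was given the same spread. Such runs do not test whether the single OE-Vector library varies as the others do, nor the recovery of smaller differences. Adjusted p-values are edgeR's unless another tool is named. The SE of a log2 difference was derived from edgeR's output, as its absolute value over the square root of the quasi-likelihood F statistic. Named genes were the 9 members, the pathway genes with the smallest adjusted p (at most 4 a comparison) and the 3 most alike genes each; the members and lists were chosen with earlier results of these data known. Some genes of these lists are not reported here. Intervals and floors cover counting error only.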

Additional observations from a re-analysis of the deposited data

How the results depend on the processing

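No paired analysis was possible, since the labels tie no OE-Vector sample to an OE-MLKL sample. Only 1 OE-Vector library has a matrix analysed here. Of 1395 log2 differences recomputed under other settings, 1310 kept their direction and their side of an adjusted p of 0.05, 30 kept the direction and lost the call, 11 gained a call and 44 changed sign, 1 of these with an adjusted p under 0.05. Thinning the cells to 1000 UMIs moved 23 of 36 shares of cells with a UMI by more than 1 SD between libraries. Between the labelled groups, scaling by library size alone took the median log2 difference of all genes from 0.04 to 0.15 in macrophages, from 0.06 to 0.29 in neutrophils and from 0.03 to 0.14 in cancer cells. It turned 4752 higher and 4402 lower genes between macrophages and cancer cells into 3632 and 6118, with the median going from 0.03 to -0.28, and 469 and 278 between the Arg1 gates into 376 and 448.

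Between libraries labelled OE-MLKL and OE-Vector, the number of the 9 genes called went from 0 to 1 in macrophages and in Arg1-positive macrophages with DESeq2 or with no filter (Cd36), to 1 in dendritic cells named by Leiden cluster (Mfge8), and ran from 0 to 1 in macrophages, Arg1-positive macrophages and cancer cells when 1 OE-MLKL library was left out (Cd36 without OE-MLKL 1 or 3, Pros1 without OE-MLKL 3). The fits that called Cd36 also called 0.54% and 1.86% of all genes in macrophages and 0.523% and 1.57% in Arg1-positive ones, and that which called Pros1 4.03%; with DESeq2 the shares were 0.507% and 0.564%, with no filter 0.115% and 0.492%, and with Leiden clusters 0.16%. Between the Arg1 gates it was 0 without the library term and 0 without the Nos2-led cluster, and ran from 1 to 2 when 1 library was left out.

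Signs that turned in macrophages were those of Pros1 (-0.16 in all and -0.071 in Arg1-positive ones with doublets kept, -0.054 to 0.33 leaving out 1 library) and Itgav (-0.14 with voom and -0.077 with doublets kept in Arg1-negative ones; leaving out 1 library, -0.55 to 0.15 in all, -0.54 to 0.13 in Arg1-positive and -0.44 to 0.33 in Arg1-negative ones). In dendritic cells Mfge8 turned to -3.31 with Leiden clusters, Stab1 to 0.49 with the stricter gate, and Cd36 ran from -0.0050 to 0.79. With Leiden clusters the dendritic cells of OE-Vector 1 take in 1 cell with 354 Mfge8 UMIs, which the gate put with T, NK and B cells. The gated dendritic cells of that library held 12 Mfge8 UMIs, and the part of the 1 cell was not tested. In neutrophils Mertk turned to 0.20 with library size scaling, 0.25 with doublets kept, 0.26 at 1000 UMIs and 500 genes, 0.0097 with Leiden clusters and 0.0037 with the stricter gate (-0.66 to 0.14 leaving out 1), Gas6 to 0.039 with library size scaling and 0.067 at 1000 UMIs, and Stab1 to 0.15 with library size scaling (-0.27 to 0.16). In cancer cells Mfge8 ran from -0.22 to 0.061.

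For macrophages against dendritic cells Tyro3 turned to -0.76 with voom and Mfge8 to -1.31 with Leiden clusters; against neutrophils Mfge8 turned to 0.0070 with library size scaling (-0.33 to 0.18 leaving out 1). Between the Arg1 gates Mertk turned to 0.00036 with no filter, 0.012 with Leiden clusters and 0.013 without the Nos2-led cluster (-0.095 to 0.019), and Stab1 to 0.023, 0.040 and 0.059 in the same order (-0.081 to 0.037). In the difference of effects between gates Mertk turned to -0.0095 with no filter, -0.0068 with shared barcodes kept, -0.062 with Leiden clusters, -0.014 with an Arg1 gate of 2 UMIs and -0.045 without the cluster (-0.083 to 0.077), and Cd36 to 0.66 without the cluster. The causes were not tested, and the alternative that left out a cluster was chosen after seeing the data, for its Cd36, so a smaller Cd36 difference follows from its construction.

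Counts of calls over all genes moved far more than those of the 9. In macrophages 4 were called in edgeR, 69 in DESeq2, 0 in voom, 23 with no filter and 0 to 241 leaving out 1 library; in Arg1-positive ones 10, 74, 6, 95 and 11 to 196; in Arg1-negative ones 0, 11, 0, 17 and 0 to 143; in dendritic cells 6, 3, 11, 37 and 22 to 122; in neutrophils 0, 106, 0, 27 and 3 to 942; in cancer cells 0 and 72 with edgeR and DESeq2 and 3 to 632. Between the gates 747 were called in edgeR, 337 in DESeq2, 1204 with no filter, 2 without the library term and 462 to 632 leaving out 1, and for the difference of effects 32, 8, 164 with no filter and 41 to 216.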

Other observations

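Outside the 4 main classes the 9 genes were also read in 2554 T, NK and B cells, 126 endothelial cells and 69 fibroblast and mesothelial cells, which entered no test. Endothelial cells held Stab1 at 238 CPM in OE-Vector 1 and at 87.8, 231 and 276 CPM in OE-MLKL 1, 2 and 3, the highest level outside macrophages. Stab1 is also a receptor of sinusoidal endothelium. Mfge8 stood at 123, 113, 258 and 163 CPM in endothelial cells and at 132, 219.5, 224 and 144 CPM in fibroblast and mesothelial cells, beside 122 to 152 CPM in cancer cells. Pros1 reached 245 CPM in the fibroblast and mesothelial cells of OE-Vector 1 and 116, 107 and 175 CPM in those of OE-MLKL 1, 2 and 3, above the cancer cells of every library. Axl in the same cells was at 333, 266, 484 and 485 CPM. Cd36, which fat-storing and capillary cells are known to carry, had no UMI in the fibroblast and mesothelial cells of any library, on 14, 15, 25 and 15 cells. In endothelial cells Cd36 was at 8.69, 87.8, 23.1 and 3.33 CPM on 40, 16, 42 and 28 cells, an uneven spread with few cells behind it.

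Single cells set a few of the low values. Among T, NK and B cells Mfge8 was at 97.0 CPM in OE-Vector 1 and at 21.9, 31.0 and 22.4 CPM in OE-MLKL 1, 2 and 3, and 1 cell of 54832 UMIs held 354 of the 437 Mfge8 UMIs of OE-Vector 1. Without that cell the level was 18.7 CPM. The cell lay in the cluster named dendritic cell, and so counts with dendritic cells when cells are named by cluster. Among endothelial cells of OE-Vector 1, 19 of 22 Gas6 UMIs came from 1 cell. Among neutrophils of OE-Vector 1, the Cd36 level was 4.58 CPM without the cell that held 24 UMIs.

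Neutrophils of the libraries differed in the sum of the monocyte list, which includes Chil3 and was not read gene by gene here. The summed level of the monocyte list was 459 CPM in OE-Vector 1 and 7258, 8555 and 2655 CPM in OE-MLKL 1, 2 and 3, beside a Cd36 of 7.63, 2.07, 0.516 and 2.45 CPM and an Axl of 18.9, 26.5, 29.1 and 39.6 CPM, and the part of these markers in the values was not tested.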
